A study of Mus musculus with 847 samples.

Results

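Hspa5, Hsp90b1, Calr, Pdia4, Pdia6, Sdf2l1, Manf, Creld2, Dnajb9 and Xbp1 are genes of the endoplasmic reticulum (ER) folding machinery and of the unfolded protein response that controls it. These 10 genes were taken by name from a table of read counts for 21076 genes, in which all of them were found. The table covers 15 dissected brain regions of 59 mice of the C57BL/6JN inbred strain, with 1 RNA sequencing library for each region and mouse and 847 libraries in all. Every mouse belongs to this strain and the labels name no other allele or treatment, so the groups differ in age, sex and region. Each age of 3, 12, 15 and 18 months is represented by 5 mice of either sex, and that of 21 months by 5 female and 6 male animals. The age of 26 months is represented by 5 males and that of 28 months by 3. The oldest 2 ages therefore hold no females. The mice were numbered, with numbers 16 to 56 holding the ages of 3, 15, 18 and 21 months, numbers 1 to 15 those of 12 and 26 months, and numbers 57 to 59 the 28-month males.

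Secreted and membrane proteins fold inside the ER, where chaperones bind unfinished chains and enzymes form and rearrange disulphide bonds. When unfolded chains accumulate, the sensors IRE1, PERK and ATF6 are activated. ATF6 is cut to release a transcription factor, IRE1 splices the Xbp1 mRNA to give another, and PERK slows translation and favours the factor ATF4. ATF6 and the spliced form of XBP1 then raise transcription of chaperone genes, so the mRNA of these genes is a common readout of the load on ER folding. In brain the machinery serves neurons, which make large amounts of membrane and secreted protein, and epithelia such as choroid plexus.

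The promoter sequence through which ATF6 acts is the ER stress response element (ERSE), a CCAAT box and a CCACG box held 9 bases apart. The RefSeq promoter table for GRCm38.p6, the assembly version of the build GRCm38 named in the submitters' processing notes, holds 250 bases before to 50 bases after the start of 9 of the 10 genes, Manf being the exception. The letters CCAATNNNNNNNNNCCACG were searched on both strands. They occur in the promoters of 5 of these 9 genes, compared with 39 of all 32851 promoters in the table (0.119%). In the matches shown next, capitals mark the CCAAT and CCACG boxes, and the strand is that of the printed sequence.
Hspa5, chr2:34772020-34772048, plus strand: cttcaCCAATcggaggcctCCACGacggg
Hsp90b1, chr10:86705633-86705661, minus strand: caagcCCAATcgcaaggagCCACGcttcg
Hsp90b1, chr10:86705528-86705556, plus strand: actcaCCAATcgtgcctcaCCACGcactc
Calr, chr8:84847070-84847098, plus strand: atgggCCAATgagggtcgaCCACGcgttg
Pdia6, chr12:17266486-17266514, plus strand: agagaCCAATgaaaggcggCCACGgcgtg
Creld2, chr15:88819515-88819543, minus strand: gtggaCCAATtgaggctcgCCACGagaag
The bases between the boxes differ among all 6 matches. Hsp90b1 carries 2 matches, on opposite strands. The nearest to a start is that of Hspa5, 47 to 65 bases upstream of the RefSeq start, and the farthest the first of Hsp90b1, 194 to 212 bases upstream. The GENCODE model of Hspa5 given below begins earlier than the RefSeq start and contains its match. The ERSE-II letters ATTGGNCCACG (0.0365% of all promoters), the XBP1-binding letters TGACGTGG (0.676%) and the ATF4-binding letters TTGCATCA (0.895%), searched likewise, occur in none of the 9. The CCACG box alone, which is part of the ERSE, occurs in 8 of 9, but also in 32.8% of all promoters. A match describes letters only, and no binding was measured.

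All 10 genes were abundant enough to be tested in every region, which gives 150 pairs of gene and region. Levels are given as counts per 1e+06 reads (CPM) after TMM normalisation, a scaling of library sizes that discounts the most extreme genes. Over the 847 libraries the median level was 469 CPM for Hspa5, which encodes BiP, the ER Hsp70 chaperone, and 426 CPM for Hsp90b1, which encodes the ER Hsp90 chaperone GRP94. It was 239 CPM for Calr (calreticulin, a lectin chaperone), 183 CPM for Xbp1 (the transcription factor), 176 CPM for Pdia6 and 55.9 CPM for Pdia4 (both protein disulphide isomerases). Dnajb9, a cochaperone of BiP, stood at 105 CPM, and Manf, a secreted ER-resident factor, at 55.1 CPM. Creld2, an ER protein with isomerase activity, had 26.6 CPM and Sdf2l1, a stabiliser of ER cochaperone complexes, 20.2 CPM. Per kilobase of merged exon in the GENCODE M21 annotation, Hspa5 remained the highest at 111 CPM per kb and Manf the lowest at 15.6 CPM per kb. The last place of Manf depends on its merged length of 3524 bases over 7 transcripts, since Sdf2l1 was the lowest in CPM.

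The sequencing was unstranded, so genes on opposite strands of the same stretch cannot be separated. Hspa5 (chr2:34771970-34777547), Calr (chr8:84841850-84846934), Sdf2l1 (chr16:17130138-17132383), Creld2 (chr15:88819646-88826683) and Xbp1 (chr11:5520659-5525893) overlap no other annotated gene. Manf (chr9:106838312-106891979) overlaps the protein-coding genes Dcaf1 and Rbm15b, Pdia6 (chr12:17266545-17284770) overlaps Atp6v1c2, and Hsp90b1 (chr10:86690209-86705509) overlaps the pseudogene 1810014B01Rik. Manf also overlaps the noncoding genes Gm37612 and 4930524O07Rik, and Hsp90b1 the processed transcript Gm15344 and the microRNA gene Gm25745. Pdia4 (chr6:47796141-47813430) and Dnajb9 (chr12:44205559-44210326) overlap a microRNA gene only. Calr also has a processed pseudogene, Calr-ps, so its counts could hold reads that belong to that copy. Values of Manf, Pdia6, Hsp90b1 and Calr are uncertain to that extent.

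The median library held 6716032 reads (range 481444 to 26756735), with 10 libraries under 1e+06. Median totals per age lay between 6328000 and 7490000 reads. The thinnest counts among the 10 genes were 6 reads for Sdf2l1 and 8 for Creld2 in single libraries, where Hspa5 never had under 205. Libraries that stand apart from their labels or regions in an earlier analysis of the same table were those of entorhinal cortex of mouse 52, subventricular zone of mouse 3 and posterior hippocampus of mouse 38, and the age slopes were also computed without them. The choroid plexus list of 10 epithelial markers summed to between 598 and 12350 CPM in choroid plexus libraries, so the amount of that epithelium differed among them. It reached 18630 CPM in corpus callosum and 8767 CPM in subventricular zone, 2 regions that border the ventricles.

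The first comparison asked how the genes change with age in the mouse brain as a whole. Each mouse gave 1 value per gene, the mean over its regions of log2 CPM minus the mean of that region, so that 0 is the level of the average mouse. Of the 10 genes, 9 fell with age and none rose. Among all 16527 genes tested in the same way 22.6% fell and 21.8% rose, and the median slope was -8.17e-05 log2 per month. The test was limma's moderated test of the coefficient of age beside sex over 59 mice, with Benjamini-Hochberg adjustment over all genes and a threshold of 0.05. Since the tissue is bulk, fewer cells of a type and less RNA per cell cannot be told apart.

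Hspa5 showed the pattern in single mice. At 3 months the 10 mice lay between -0.14 and 0.35 log2 around a median of 0.05. At 12 months the median was 0.16, and at 15, 18 and 21 months it was 0.08, -0.10 and -0.08. The 5 males of 26 months lay at -0.32, -0.28, -0.13, -0.07 and 0.04, and the 3 males of 28 months at -0.31, -0.28 and -0.18. All 28-month mice were thus below all 3-month mice, while the ages from 3 to 21 months overlapped. The slope of Hspa5 was -0.0141 ± 0.00264 log2 per month (SE, n = 59, adjusted p = 1.35e-05).

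**Figure D1:**
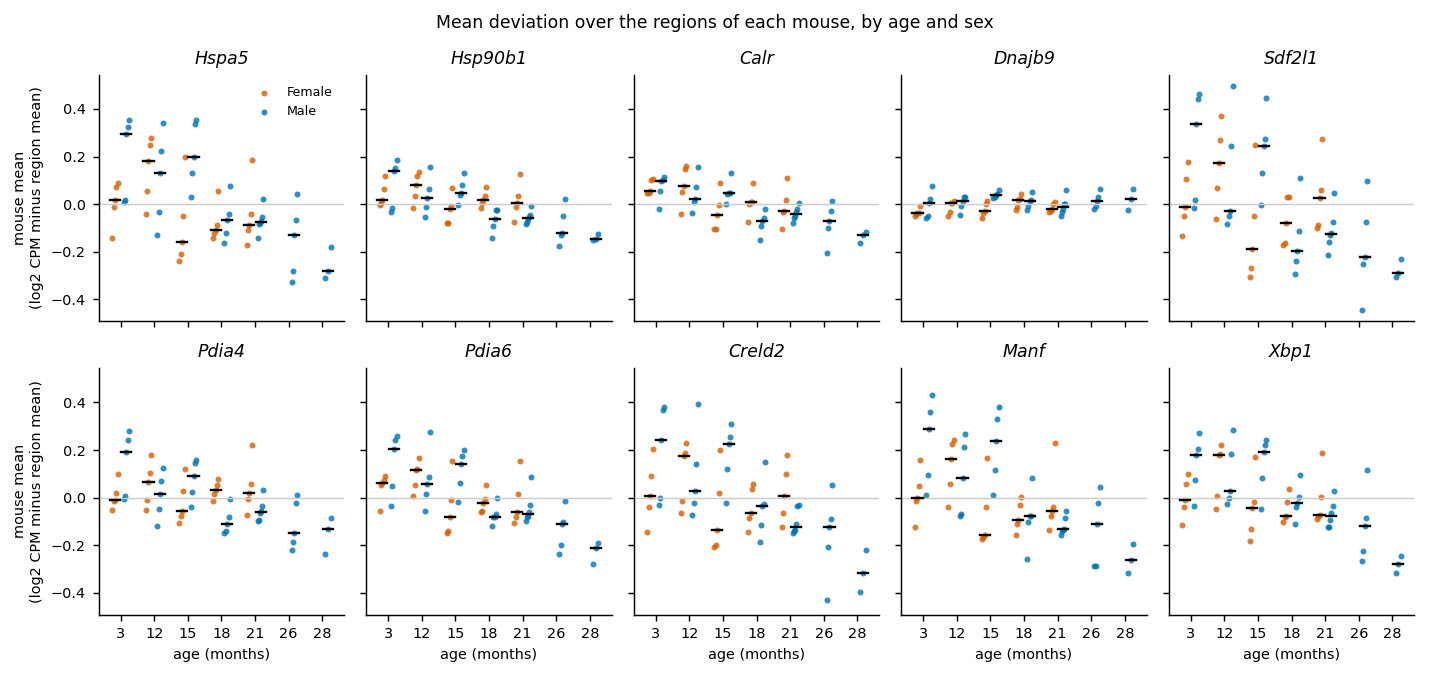
Mean log2 level of each gene relative to the region mean (y axis, log2) against age in months (x axis), with 1 point per mouse, sexes by colour and group medians as bars. In 9 panels the 28-month males lie at the low end, and in the Dnajb9 panel the ages overlap around 0.

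The remaining chaperones and folding enzymes fell as well. Hsp90b1 had a slope of -0.00666 ± 0.00123 (adjusted p = 9.36e-06) and Calr one of -0.00705 ± 0.00119 (adjusted p = 1.81e-06). Of the disulphide isomerases, Pdia6 had a slope of -0.0110 ± 0.00175 (adjusted p = 5.95e-07) and Pdia4 one of -0.00731 ± 0.00172 (adjusted p = 0.000383). The most negative estimate was that of Sdf2l1, at -0.0157 ± 0.00341 (adjusted p = 0.000129), which differed from that of Manf by less than either SE. Manf had a slope of -0.0146 ± 0.00263 (adjusted p = 6.19e-06) and Creld2 one of -0.0137 ± 0.00274 (adjusted p = 3.91e-05). The transcription factor Xbp1 itself fell by 0.0109 ± 0.00217 log2 per month (adjusted p = 3.60e-05). The counts do not tell its spliced and unspliced forms apart.

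Dnajb9 was the exception. Its mouse means stayed between -0.06 and 0.08 log2 at every age, with medians of -0.04 at 3 months and 0.02 at 28 months. Its slope was 0.000779 ± 0.000597 log2 per month (adjusted p = 0.2996). The 9 falling genes stayed past the threshold whichever of the 59 mice was left out, with a largest adjusted p of 0.00236 for Pdia4, and Dnajb9 was not called in any of these fits.

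The decline was measured mainly in males. In the 26 males of 3 to 21 months alone, the same 9 genes fell (14.7% of all genes fell), with Hspa5 at -0.0151 ± 0.00435 (adjusted p = 0.00951). In the 25 females none of the 10 passed the threshold (7.79% of all genes fell). An unadjusted p under 0.05 in limma was reached by 1, Calr, and by 5169 of all 16527 genes in either direction. The females' slope was -0.00569 ± 0.00429 for Hspa5 (adjusted p = 0.391), -0.00519 ± 0.00216 for Calr (adjusted p = 0.0950) and 0.00126 ± 0.00244 for Pdia4 (adjusted p = 0.772). In males of 3 months the median of Hspa5 was 0.29 and in females 0.02, whereas at 21 months the medians were -0.07 and -0.09. The difference between the slopes of the sexes, tested over the 51 mice of 3 to 21 months, was past the threshold for Pdia4 only (3.13% of all genes). That difference was -0.0129 ± 0.00383 log2 per month, males minus females (adjusted p = 0.0483), and it was lost when any of many single mice was left out. For Hspa5 it was -0.00953 ± 0.00636 (adjusted p = 0.451). A test of edgeR on counts summed over the regions of the 37 mice that have all 15 called 3 genes (7.36% of all genes fell), Calr (adjusted p = 0.00702), Pdia6 (adjusted p = 0.0305) and Manf (adjusted p = 0.0427). Hspa5 then had an adjusted p of 0.0857.

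Each region was next fitted alone with edgeR's quasi-likelihood test of age beside sex, with Benjamini-Hochberg adjustment over all genes of the region. The 10 genes fell in 79 of the 150 pairs of gene and region and rose in 0, whereas 4.71% of all such pairs fell and 5.87% rose. Slopes were negative in 136 of the 150, with a median of -0.0101 log2 per month. Without the 3 libraries that stand apart 80 pairs fell. Xbp1 fell in 11 regions, Pdia6, Manf and Creld2 in 10 each, Hspa5 and Calr in 9, Hsp90b1 in 8, Sdf2l1 in 7, Pdia4 in 5 and Dnajb9 in 0. No gene fell in all 15 regions.

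**Figure D2:**
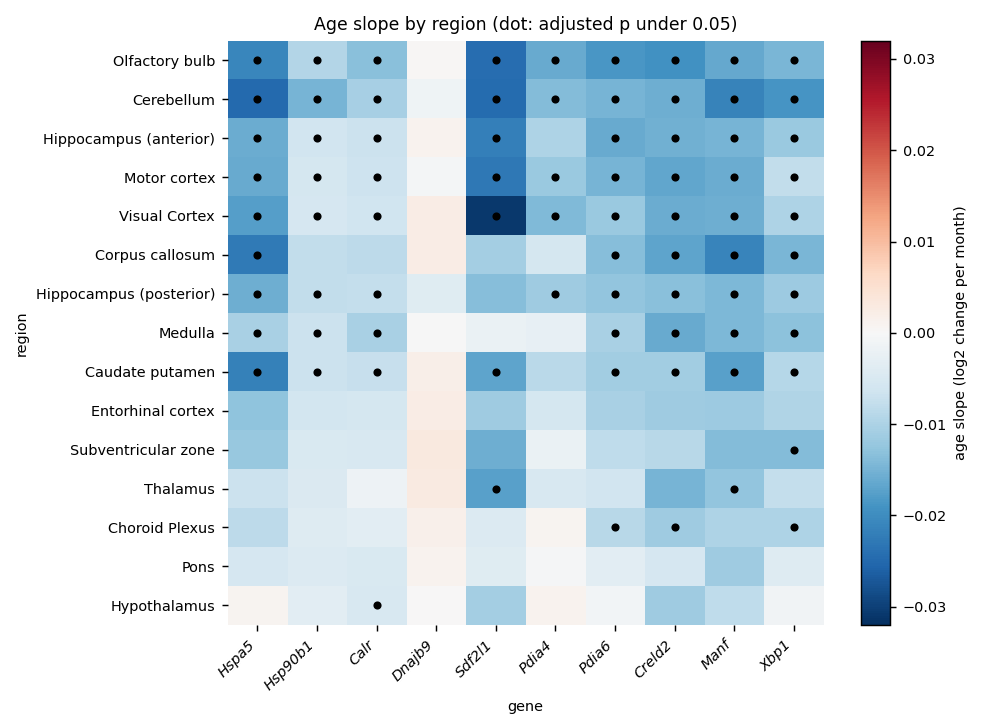
Age slope of each gene (columns) in each region (rows), in log2 per month by colour, with called pairs marked. The cerebellum, olfactory bulb, motor cortex and visual cortex rows each hold 9 marked genes, and the entorhinal cortex and pons rows hold none.

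Regions differed in how many of the 10 genes passed. In cerebellum 9 fell (7.52% of all genes fell there), as in motor cortex (8.65%), olfactory bulb (8.30%) and visual cortex (4.46%). Caudate putamen had 8 (6.11%), anterior hippocampus 8 (3.64%), posterior hippocampus 8 (2.05%) and medulla 7 (3.95%). Corpus callosum had 5 (8.71%), choroid plexus 3 (9.03%), thalamus 2 (1.51%), subventricular zone 1 (3.27%) and hypothalamus 1 (3.0%). Pons had 0 (0.743%) and entorhinal cortex 0 (0.0207%), the regions with the fewest libraries, 51 each. The choroid plexus epithelial list differed widely among libraries of several regions, and with it as a covariate 94 pairs fell (4.99% of all pairs).

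The slope of Hspa5 was most negative in cerebellum, the region of Purkinje and granule neurons. Its level there ran from 406 to 580 CPM around a median of 488 at 3 months (n = 10), and from 418 to 749 around 525 at 12 months (n = 9). The medians at 15, 18 and 21 months were 444, 382 and 384 CPM. The 26-month males had 307, 337, 378, 423 and 426 CPM, and the 28-month males 319, 327 and 331 CPM. All 28-month values were below all 3-month values, and the highest single value of the region belonged to a 12-month mouse. The slope was -0.0248 ± 0.00427 log2 per month (n = 58, adjusted p = 1.27e-05).

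Corpus callosum (-0.0226 ± 0.00632, adjusted p = 0.00743), caudate putamen (-0.0216 ± 0.00345, adjusted p = 6.03e-06) and olfactory bulb (-0.0209 ± 0.00316, adjusted p = 1.69e-06) had slopes of Hspa5 close to that of cerebellum. In olfactory bulb the 3-month libraries ran from 352 to 490 CPM and the 28-month libraries had 274, 292 and 301 CPM. Hypothalamus was the opposite case. Its 3-month libraries ran from 553 to 673 CPM around 636, its 21-month libraries from 600 to 748 around 693, and its 28-month libraries had 625 and 691 CPM. The groups overlapped throughout, and the slope was 0.000972 ± 0.00253 (n = 55, adjusted p = 0.891). Thalamus (-0.00680 ± 0.00282, adjusted p = 0.193) and pons (-0.00544 ± 0.00429, adjusted p = 0.608) also did not pass.

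**Figure D3:**
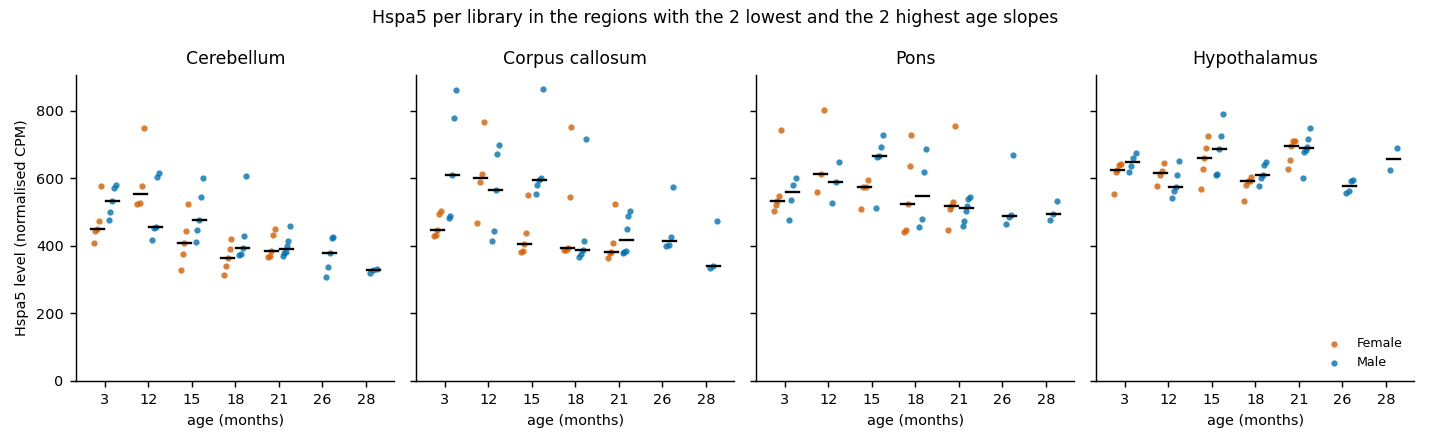
Hspa5 level in CPM (y axis) against age in months (x axis) in cerebellum, corpus callosum, pons and hypothalamus, with 1 point per library, sexes by colour and group medians as bars. In cerebellum the 28-month libraries sit between 319 and 331 CPM, under the 3-month range of 406 to 580 CPM, while in hypothalamus the ages overlap.

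Whether slopes differ between regions was tested directly with the age by region terms of a joint edgeR fit over all 847 libraries. Hspa5 (adjusted p = 0.00351) and Pdia6 (adjusted p = 0.0378) passed, as did 16.9% of all genes. Because the regions come from the same mice, the mouse was also taken as a replicate block, each mouse having its own level in the fit. With it 6 genes passed (17.3% of all genes), with adjusted p of 4.62e-08 for Hspa5, 0.000532 for Xbp1, 0.00129 for Pdia6, 0.00860 for Sdf2l1, 0.0182 for Hsp90b1 and 0.0293 for Pdia4. Without the libraries that stand apart, only Hspa5 passed in the fit without the block (adjusted p = 0.00745, Pdia6 0.0522; 17.0% of all genes). Among mice 16 to 56 alone none of the 10 passed (13.7% of all genes), with Hspa5 at an adjusted p of 0.0812. Single regions were set against the mean of the others in the fit without the block, and 1 pair passed (1.2% of all pairs). This was Hsp90b1 in cerebellum, whose slope was steeper by -0.00898 ± 0.00214 log2 per month (adjusted p = 0.00481). Hspa5 in hypothalamus was shallower by 0.0153 ± 0.00423 but did not pass (adjusted p = 0.113).

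Among the other chaperones, Hsp90b1 was likewise steepest in cerebellum. Its 3-month libraries ran from 387 to 584 CPM around 455, and its 28-month libraries had 323, 348 and 354 CPM, all below them. The slope was -0.0150 ± 0.00246 (adjusted p = 5.09e-06). Calr was steepest in olfactory bulb, from a range of 241 to 290 CPM at 3 months to 193, 207 and 209 CPM at 28 months. Its slope there was -0.0135 ± 0.00195 (adjusted p = 5.83e-07), and Calr was the one gene of the 10 that fell in hypothalamus (-0.00505 ± 0.00141, adjusted p = 0.0189).

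Pdia6 and Pdia4 were steepest in olfactory bulb as well. Pdia6 ran from 133 to 180 CPM at 3 months and had 91.5, 107 and 109 CPM at 28 months, with a slope of -0.0187 ± 0.00259 (adjusted p = 2.27e-07). Pdia4 ran from 43.7 to 72.5 CPM at 3 months and had 24.6, 41.3 and 44.0 CPM at 28 months, so that the highest 28-month library reached into the 3-month range. The slope of Pdia4 was -0.0162 ± 0.00320 (adjusted p = 0.000190) there but -0.000383 ± 0.00285 in pons (adjusted p = 0.992). In pons Pdia4 had 62.4 to 78.0 CPM at 3 months and 65.5, 66.0 and 69.0 CPM at 28 months, within that range.

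Sdf2l1 had the steepest slope of all 150 pairs, in visual cortex. It ran from 14.6 to 35.2 CPM around 18.8 at 3 months, and had 9.26, 12.5 and 13.7 CPM at 28 months, all below. The slope was -0.0310 ± 0.00557 (adjusted p = 0.000111). At 3 months the 5 males there had a median of 24.6 CPM, above the 18.8 CPM of both sexes. Manf had negative slopes in all 15 regions, from -0.0214 ± 0.00450 in cerebellum (adjusted p = 0.000340) to -0.00820 ± 0.00292 in hypothalamus (adjusted p = 0.0762). In cerebellum its 3-month libraries ran from 53.9 to 81.5 CPM and its 28-month libraries had 44.8, 46.8 and 50.2 CPM, all below.

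Creld2 was steepest in olfactory bulb (-0.0194 ± 0.00343, adjusted p = 3.44e-05), where it ran from 21.9 to 35.9 CPM at 3 months and had 16.9, 18.5 and 20.3 CPM at 28 months. Xbp1 was steepest in cerebellum (-0.0188 ± 0.00364, adjusted p = 0.000105), where it ran from 196 to 286 CPM at 3 months and had 164, 171 and 186 CPM at 28 months. In both cases the oldest group lay wholly below the youngest. Xbp1 was also the only one of the 10 that fell in subventricular zone (-0.0139 ± 0.00356, adjusted p = 0.00810). The slopes of Dnajb9 ran from -0.00386 in posterior hippocampus to 0.00310 in subventricular zone, and none had an unadjusted p under 0.05. In cerebellum Dnajb9 had 105 to 125 CPM at 3 months and 101, 111 and 119 CPM at 28 months.

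Steps between ages were examined with age as a factor, each later age being set against the same 3-month libraries. At 12 months no pair was lower or higher (0.668% and 0.678% of all pairs), with 3 lower and 2 higher at an unadjusted p under 0.05, in edgeR and in DESeq2 alike. At 15 months 1 pair was lower (0.450% lower, 0.657% higher), Pdia4 in olfactory bulb at -0.29 ± 0.08 log2 (adjusted p = 0.0166). At 18 months 22 pairs were lower (0.921% lower, 1.54% higher), at 21 months 22 (2.65% and 3.53%), at 26 months 33 (1.32% and 2.38%) and at 28 months 58 (2.47% and 3.30%). None was higher at any age. The 26-month males also differed in blood: the summed level of 5 blood markers relative to the region mean had a median of 4.37 in them (0.884 to 27.7) and of 1.01 at 3 months (0.436 to 2.76), and its part in the lower pairs was not tested. The median over the 150 pairs was -0.002 log2 at 12 months, -0.05 at 15, -0.12 at 18, -0.12 at 21, -0.22 at 26 and -0.30 at 28 months. The counts of different ages share their 3-month libraries and differ in group size, so they are not independent of each other.

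Hspa5 in cerebellum followed these steps, at 0.14 ± 0.09 log2 at 12 months and -0.13 ± 0.09 at 15 months, neither of which passed. It was at -0.32 ± 0.09 at 18 months (adjusted p = 0.0251), -0.31 ± 0.09 at 21 months (adjusted p = 0.0160), -0.46 ± 0.12 at 26 months (adjusted p = 0.00805) and -0.67 ± 0.14 at 28 months (adjusted p = 0.000898). At 28 months Xbp1 was lower in 10 regions, Pdia6 in 9, Hspa5 and Manf in 7, Creld2 in 6, Calr, Hsp90b1 and Sdf2l1 in 5, Pdia4 in 4 and Dnajb9 in 0.

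Single libraries of the youngest and oldest groups were also set against each other. In 63 of the 150 pairs every 28-month library was below every 3-month library (2.48% of all pairs), and in 1, Dnajb9 in thalamus, every one was above (2.96%). The 28-month median was the lower one in 136 pairs. Over the regions, the median ratio of the 28-month to the 3-month median was 0.761 for Creld2, 0.782 for Xbp1, 0.784 for Sdf2l1, 0.790 for Hspa5, 0.806 for Pdia6 and 0.807 for Manf. It was 0.854 for Pdia4, 0.869 for Calr, 0.883 for Hsp90b1 and 1.04 for Dnajb9. The 28-month libraries are all from males numbered 57 to 59, so that age and this set of mice cannot be told apart there.

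Splits by sex and by mouse number gave smaller counts. Males of 3 to 21 months alone gave 31 falling pairs (1.19% of all pairs) with a median slope of -0.0112, and both sexes of 3 to 21 months gave 37 (3.08%). Mice 16 to 56 alone, which leave out 12, 26 and 28 months, gave 31 falling pairs (2.93% of all pairs) with a median slope of -0.00660. Males 1 to 15, which hold 12 and 26 months only, gave 0 at adjusted p (0.0259% of all pairs) and 49 at an unadjusted p under 0.05, with a median slope of -0.0129 and 131 of 150 negative. Females gave 0 falling pairs (0.517% of all pairs) and 12 at an unadjusted p under 0.05, with a median slope of -0.00233 and 103 negative. The age by sex term, tested in each region over 3 to 21 months, called 0 of 150 pairs in edgeR and in DESeq2 (0.0727% of all pairs). It had 26 pairs at an unadjusted p under 0.05 in edgeR, as did 12529 of all 211769 pairs. No such share stands beside the unadjusted counts of 49 and 12 above. Of the 150 values of the term, 133 were negative, that is, lower in males than in females. A difference between the sexes in the regional slopes was therefore not established.

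The level of the genes differed little between the sexes from 3 to 21 months. Over mouse means no gene of the 10 was called in limma (7.11% of all genes), and 2, Hspa5 and Dnajb9, had an unadjusted p under 0.05. Hspa5 was higher in males by 0.09 ± 0.04 log2 (adjusted p = 0.155). By region 5 of 150 pairs passed, 4 higher in males (1.24% of all pairs) and 1 lower (1.47%). The 4 were in medulla, where 22.5% of all genes differed between the sexes. They were Hspa5 (0.16 ± 0.05 log2, adjusted p = 0.0166), Xbp1 (0.16 ± 0.05, adjusted p = 0.0109), Calr (0.15 ± 0.04, adjusted p = 0.0121) and Pdia6 (0.11 ± 0.04, adjusted p = 0.0316). The 1 lower in males was Calr in motor cortex (-0.06 ± 0.02, adjusted p = 0.0373).

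Mice of the same age and sex also differed from each other in these genes, and the genes moved together. Within each region, age as a factor and sex were removed from log2 CPM, and Hspa5 was correlated with each other gene across the 51 to 59 mice. Every value of Pearson's r was positive over the 9 genes and 15 regions, with a median of 0.690, and 125 passed an adjusted p of 0.05 (permutation test with 100000 resamples, 2-sided, adjusted over all relations). Without the 2 libraries farthest from the median of Hspa5, 122 did. The genes of a library share its depth and composition, and how many of all genes would pass with Hspa5 was not tested. Removing library total and number of detected genes as well left 124.

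Pdia6 followed Hspa5 most closely, with a median r of 0.842 and a range from 0.689 in choroid plexus to 0.953 in corpus callosum, and passed in 15 of 15 regions. In corpus callosum Spearman's rho was 0.956 and r without the 2 farthest libraries 0.942 (n = 57, permutation p = 1e-05, the smallest that these permutations can give, adjusted p = 1.39e-05). Median r was 0.736 for Xbp1, 0.729 for Manf, 0.679 for Hsp90b1, 0.674 for Pdia4 and 0.664 for Creld2, each passing in 15 regions, and 0.699 for Sdf2l1, passing in 14. Calr had a median r of 0.599 and passed in 13 regions, the exceptions being hypothalamus (r = 0.185, rho = 0.228) and visual cortex (r = 0.186, rho = 0.253). In pons and thalamus Calr no longer passed without the 2 farthest libraries, r going from 0.397 to 0.226 and from 0.310 to 0.210. Dnajb9 had a median r of 0.295 and passed in 8 regions. One of these, entorhinal cortex (r = 0.295, rho = -0.016), rests on 2 libraries, without which r was 0.012. Its highest value was 0.570, in corpus callosum.

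**Figure D4:**
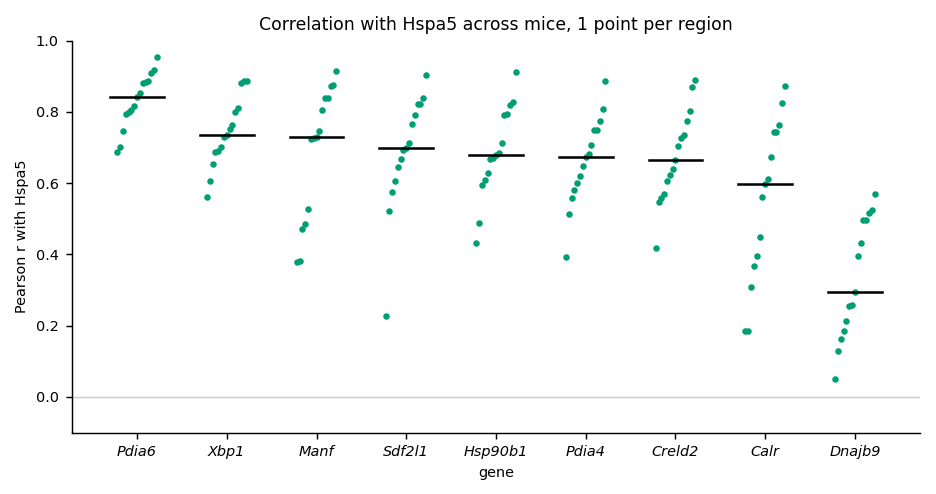
Pearson's r between Hspa5 and each other gene (x axis) across mice, after removal of age and sex, with 1 point per region and the median over regions as a bar. The Pdia6 column holds values from 0.689 to 0.953, and the Dnajb9 column values from 0.051 to 0.570.

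The mouse itself, apart from its age and sex, accounted for 17.0% of the variance of Hspa5 over all libraries and 26.3% of that of Manf, compared with a median of 2.38% over 16527 genes. For Dnajb9 this share was 2.42%. Region accounted for 48.2% in Hspa5 and 19.2% in Manf, and age for 11.9% and 18.7%. An example of such a difference between mice is mouse 8, a 26-month male with 15 regions, whose value of Hspa5 was 0.04 log2, while mouse 11 of the same age and sex was at -0.32. The same pair of mice stood at 0.12 and -0.26 for Xbp1, and at 0.05 and -0.29 for Manf.

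Outside the 10 genes, those that varied most like their mean within regions were ranked by r among 11562 genes with a median of at least 5 CPM. The first 5 were Pdia3 (mean r over regions of 0.686), Dnajb11 (0.631), Dnajc3 (0.606), Rpn1 (0.537) and Ormdl2 (0.536). Pdia3 is a disulphide isomerase that works with calreticulin, Dnajb11 and Dnajc3 are BiP cochaperones, and Rpn1 is a subunit of the oligosaccharyltransferase. With age, Dnajb11 fell over mouse means (-0.00956 ± 0.00140 log2 per month, adjusted p = 8.22e-08) and in 10 regions, and Pdia3 fell (-0.00662 ± 0.00116, adjusted p = 3.60e-06) and did so in 7. Rpn1 fell by 0.00233 log2 per month (adjusted p = 0.00239). Dnajc3 (-0.000921, adjusted p = 0.634) and Ormdl2 (-0.00234, adjusted p = 0.216) did not pass over mouse means. By region Dnajc3 fell in 1 and Ormdl2 in 2. Later ranks held heat shock chaperones that belong to no ER list, among them Hspd1 (rank 7), Dnajb1 (rank 9) and Hspa8 (rank 18). They fell in 11, 14 and 12 regions, so a fall with age was not confined to ER genes. Not all later ranks fell, since Ctsd (rank 24) rose in 12 regions.

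Levels also differed between regions, by modest amounts. Each region was set against the mean of the other 14 in the joint fit, and 123 of the 150 pairs had an adjusted p under 0.05, as did 84.3% of all pairs. None reached 1.5-fold, in either direction, in the fit with the mouse as a replicate block or without it, whereas 12.1% of all pairs were at least 1.5-fold higher and 12.0% lower. The values ran from -0.48 log2 (Pdia6 in cerebellum, SE 0.02) to 0.45 (Sdf2l1 in medulla, SE 0.04).

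**Figure D5:**
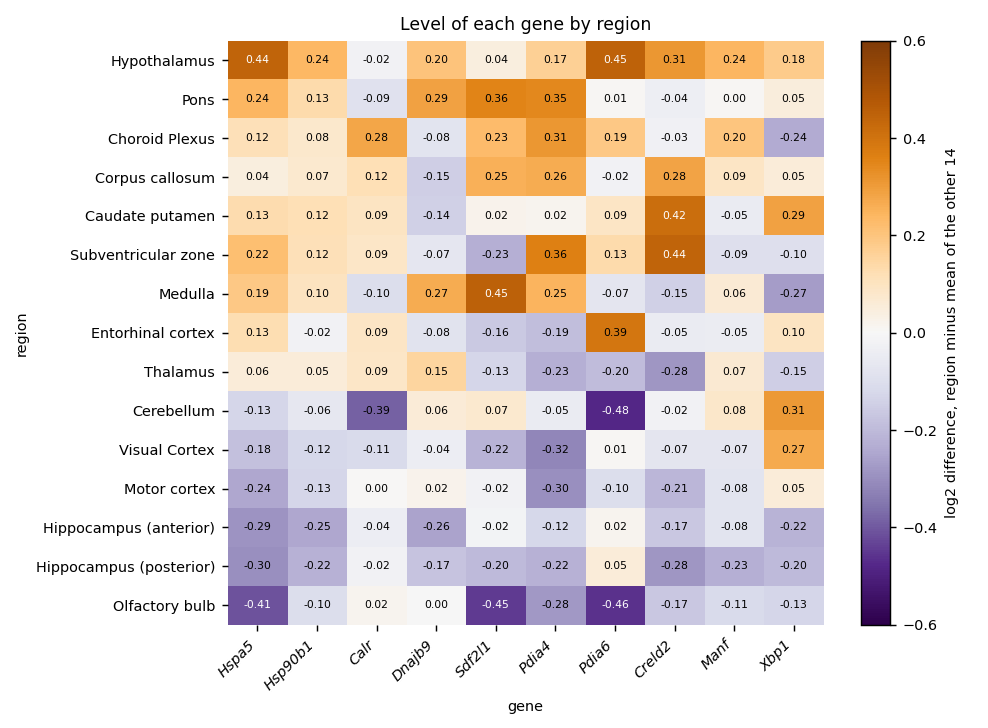
Log2 difference of each gene (columns) in each region (rows) from the mean of the other 14 regions. Hypothalamus is on the high side for Hspa5 and Pdia6, olfactory bulb on the low side for Hspa5, Pdia6 and Sdf2l1, and no value passes 0.48 in size.

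Hypothalamus, which holds many peptide-secreting neurons, had the highest median of Hspa5 (625 CPM), Hsp90b1 (500.0 CPM), Pdia6 (236 CPM) and Manf (65.1 CPM). Relative to the other regions, Hspa5 was higher there by 0.44 ± 0.03 log2 (adjusted p = 3.39e-47) and Pdia6 by 0.45 ± 0.02 (adjusted p = 2.43e-78). The joint fit treats libraries of 1 mouse as independent, so these errors and p-values do not measure the spread between mice. Olfactory bulb had the lowest median of Hspa5 (357 CPM), Pdia6 (131 CPM) and Sdf2l1 (15.3 CPM). The ratio of highest to lowest regional median was 1.75 for Hspa5, 1.81 for Pdia6 and 1.85 for Sdf2l1, the widest. For Hsp90b1 it was 1.38, the narrowest.

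The order of regions differed from gene to gene. Calr was highest in choroid plexus (287 CPM), the region of the epithelium that secretes cerebrospinal fluid, and lowest in cerebellum (186 CPM). Xbp1 was the reverse, highest in cerebellum (228 CPM) and lowest in choroid plexus (155 CPM). Choroid plexus libraries were mixed tissue: their summed markers had medians of 6153 CPM for the epithelium, 12600 CPM for oligodendrocytes and 5381 CPM for neurons. Pdia4 and Dnajb9 were highest in pons (70.1 and 129 CPM), Sdf2l1 in medulla (28.4 CPM) and Creld2 in caudate putamen (36.3 CPM). The region with the highest Hspa5, hypothalamus, was also the one where its age slope was nearest to 0.

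Other genes of the pathway were taken from lists by function. Their counts are to be read against all genes, of which 22.6% fell and 21.8% rose over mouse means, and against all pairs by region, of which 4.71% fell and 5.87% rose. Of 23 tested genes of ER folding other than the 10, 6 fell over mouse means (26.1%) and 3 rose (13.0%), with a median slope of -0.000921 log2 per month. By region 29 of their 342 pairs fell (8.48%) and 10 rose (2.92%). Dnajb11 and Pdia3, given above, fell in the most regions, and Sil1, the nucleotide exchange factor of BiP, and Dnajc10, an ER reductase, rose in 4 regions each. Sil1 had a slope over mouse means of 0.00639 ± 0.00107 (adjusted p = 1.45e-06).

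Of 26 genes of ER degradation and translocation, 11 fell (42.3%) and 8 rose (30.8%) over mouse means, with a median slope of -0.000548. By region 20 of their 389 pairs fell (5.14%) and 22 rose (5.66%), shares near those of all pairs. Syvn1, the ubiquitin ligase HRD1, fell in 4 regions, whereas the signal peptidase subunit Sec11c and Edem2, which trims glycans of misfolded proteins, rose in 5 each. Edem1, related to Edem2, rose in 3. Of 10 sensor genes, 1 fell over mouse means, Atf6b (-0.00446 ± 0.000784, adjusted p = 3.96e-06, falling in 4 regions), and 4 rose (median 0.00181), with 4 of 139 pairs falling (2.88%) and 3 rising (2.16%). Those included Mbtps1, one of the proteases that cut ATF6 (0.00291 ± 0.000864, adjusted p = 0.00454, rising in 2 regions). Ern2 rose as well (0.0107 ± 0.00273, adjusted p = 0.00102) but was tested in 4 regions and called in none. Mbtps2 rose in 1 region and did not pass over mouse means (adjusted p = 0.238).

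Of 18 genes of the PERK and ATF4 arm, 3 fell (16.7%) and 6 rose (33.3%) over mouse means, with a median slope of 0.000492. By region 12 of their 264 pairs fell (4.55%) and 21 rose (7.95%), the former near the share of all pairs. Ddit4, an inhibitor of mTORC1, fell in 7 regions (-0.0120 ± 0.00290 over mouse means, adjusted p = 0.000518). The serine synthesis enzyme Psat1 rose in 6 regions (0.00784 ± 0.00114, adjusted p = 7.35e-08). Nupr1 rose in 4 (0.0139 ± 0.00249, adjusted p = 5.99e-06), and Atf3 rose in 4 regions but did not pass over mouse means (0.0188 ± 0.00897, adjusted p = 0.0811). Of the 15 genes outside the 10 whose promoters hold the ERSE letters and that were tested over mouse means, 6 fell and 2 rose, with a median slope of -0.000965, where 22.6% of all genes fell and 21.8% rose.

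Markers of cell types moved with age in the same mice. Of 6 microglia markers 5 rose over mouse means, and their summed level relative to the region mean ran from 0.805 to 0.935 in 3-month mice and from 1.10 to 1.20 in 28-month mice. Of 6 oligodendrocyte markers 4 rose (0.882 to 1.03 at 3 months, 1.051 to 1.066 at 28 months), and of 6 astrocyte markers 4 rose and 1 fell (0.906 to 0.981, 1.04 to 1.21). Of 6 neuron markers 3 fell (0.959 to 1.04, 0.957 to 0.998), and of 6 fibroblast markers 3 fell (0.832 to 1.36, 0.822 to 1.01). Of 6 endothelial markers 1 rose (0.918 to 1.08, 0.972 to 1.04) and of 10 choroid plexus markers 1 rose (0.7999 to 1.08, 1.01 to 1.10). Of 5 ependymal markers 1 rose (0.855 to 1.13, 0.993 to 1.09). Of 5 tested markers of B and plasma cells, which hold much ER, 2 rose (0.4659 to 1.33, 1.13 to 1.95). Mzb1 and Ms4a1, which mark plasma cells and B cells, had no read in 663 and 568 of the 847 libraries, and Jchain, the chain that joins secreted antibodies, had a median of 0.411 CPM. The 5 blood markers had adjusted p from 0.203 to 0.824 over mouse means in limma (0.436 to 2.76, 0.995 to 1.70), and 12 of their 75 pairs rose by region. The fit with the choroid plexus list as a covariate is given above. The part of the other lists in the decline of the 10 genes was not tested.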

How the data were processed

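Per the labels' protocols, RNA of homogenised tissue (RNeasy) was reverse transcribed by Smart-Seq2, and unstranded libraries were prepared from the cDNA by Nextera XT tagmentation. The authors deposited 1 table of raw read counts per gene symbol and library. The submitters' processing notes name Trim Galore 0.3.7, STAR 2.5.3a, DESeq2 and GRCm38 without their roles, and the counting program and annotation are not given in the sources used here. The deposited counts were whole numbers, no library repeated another, and every column carried the name of 1 labelled sample. Region, age, sex and mouse came from the labels.

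Fits used R 4.3.3 with edgeR 4.0.16 (TMM factors, filterByExpr, quasi-likelihood test), limma 3.58.1 and DESeq2 1.42.0, on all genes, with Benjamini-Hochberg adjustment over all genes tested and a threshold of 0.05. Log2 CPM used a prior count of 2. Python 3.11.15 (pandas 2.3.3, numpy 2.4.6, matplotlib 3.10.9) served for summaries and plots. The scripts were tested on simulated data. Errors are SE between mice, which are the replicates, in the fits of single regions and over mouse means. In the main joint fit they are SE between libraries, because libraries of 1 mouse count as independent there. Reads carry no molecular identifiers. The same mouse numbers recur across regions because the labels give libraries of 1 animal 1 number. The mouse was therefore the replicate block in an alternative to the main joint fit, which has no mouse term. The block is absent within a region, where each mouse has 1 library.

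Named genes are the 10 members, up to 4 genes per pathway list called for age in the most regions, and the 5 genes that vary most like the members. Some genes of later ranks are named beside these 5. The members, lists and tests were chosen with earlier results of these data known. The alternatives were RLE factors, no filter, other tools, other prior counts, covariates, the replicate block, subsets of sex, age and mouse number, and leaving out single mice or libraries. The splits of females alone, of males or both sexes of 3 to 21 months, the tests of sex over mouse means, and the mouse means without the libraries that stand apart were added after the data were seen.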

Additional observations from a re-analysis of the deposited data

Results flagged for a closer look

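The slopes with age differed between regions for Hspa5 (adjusted p = 0.00351) and for Pdia6 (adjusted p = 0.0378) in the joint edgeR fit of 847 libraries, as they did for 16.9% of all genes. With the mouse as a replicate block both passed. Without the libraries that stand apart Pdia6 did not (adjusted p = 0.0522). Among mice 16 to 56 alone neither did (adjusted p = 0.0812 for Hspa5 and 0.389 for Pdia6). The slope of Hspa5 ran from -0.0248 log2 per month in cerebellum to 0.000972 in hypothalamus, and that of Pdia6 from -0.0187 in olfactory bulb to -0.000755 in hypothalamus. The slope of Pdia4 over mouse means differed between the sexes, by -0.0129 log2 per month (males minus females) over 51 mice. The adjusted p in limma was 0.0483, 3.13% of all genes passed, and the call was lost when any of many single mice was left out. One mouse lay far from the others of its age: the Calr value of mouse 29 at 3 months was -0.0217 log2, where the median of the 10 mice was 0.08. Of the 50 groups of mice and genes tested for such a value, this was the only 1 found, and chance flags about 1 in 20.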

How the results depend on the processing

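The 79 falling pairs of gene and region stayed within 1.5 times of that count with RLE factors, without the filter, in DESeq2, in males alone, with depth or the choroid plexus list as covariates, without the libraries that stand apart, and without any of 14 single mice (72 to 81 pairs). They became 0 in females alone, 31 in males of 3 to 21 months, 37 in both sexes of 3 to 21 months, 31 in mice 16 to 56 and 0 in males 1 to 15. These subsets hold fewer mice. In females alone the slope turned positive for Creld2 in corpus callosum (0.00239), Hspa5 (0.000327) and Hsp90b1 (0.000306) in medulla, Sdf2l1 in thalamus (0.00240), Hsp90b1 (0.000370) and Creld2 (0.00183) in visual cortex, and Pdia4 over mouse means (0.00126); the cause was not tested. Over mouse means the 9 falling genes became 0 in females alone and 3 with edgeR on summed counts of 37 mice, and were 8 or 9 under every other alternative, 9 without any 1 of the 59 mice. Of the calls against 3 months, 136 in all, 105 to 146 were made without single mice. The call of Pdia4 for age by sex over mouse means gave 0 to 1 genes without single mice. The 5 sex differences by region became 0 in 12-month mice alone and 3 to 5 without single mice (3 without mouse 18). For slopes that differ between regions, the 2 genes became 1 without the libraries that stand apart, 1 with limma voom, 0 in mice 16 to 56 and 6 with the mouse as a replicate block, which changed no other count. In males alone there were 2, but Sdf2l1 (adjusted p = 0.0365) was called in place of Pdia6 (adjusted p = 0.0530). Levels of 20 CPM in shallow libraries limit Sdf2l1 and Creld2 most, where single libraries hold 6 and 8 reads.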
